A study of Mus musculus with 36 samples.

Results

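The interferon regulatory factors are a family of transcription factors. The 8 members described here, Irf1, Irf2, Irf3, Irf4, Irf5, Irf7, Irf8 and Irf9, were taken by gene name from a table of 54532 genes, and each name matched 1 row. RNA-seq was performed on bone-marrow-derived macrophages (BMDMs) grown with MCSF from C57BL/6 female mice aged 13 to 17 weeks. KO macrophages carried LysM-Cre and floxed Bmal1 alleles (LysM-Cre;Bmal1 flox/flox, n = 6), and WT macrophages carried the same floxed alleles without Cre (Bmal1 flox/flox, n = 3). Each genotype received DMSO (vehicle), CCM at 100 µM, LPS at 100 nM or both compounds together for 6 h, giving 36 libraries in 8 groups. CCM is a small molecule that binds the clock factor BMAL1, and LPS is a bacterial cell wall component recognized by Toll-like receptor 4. The design asks how CCM acts on resting and stimulated macrophages, and whether that depends on Bmal1. The LysM promoter drives Cre in myeloid cells, so loss of Bmal1 need not be complete in a culture. These numbers of replicates refer to mice, but no source says whether libraries with the same number in different treatments came from the same mouse.

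IRF3, IRF5 and IRF7 are activated by phosphorylation downstream of pattern-recognition receptors and drive transcription of interferon-beta and other cytokines. Secreted interferon then activates the complex ISGF3, in which IRF9 binds the interferon-stimulated response element (ISRE) of target genes, Irf7 among them. IRF1 and IRF8 act on genes of the interferon-gamma and IL-12 programs, IRF2 can oppose IRF1 at shared sites, and IRF4 is linked with alternative activation. Much of the control of IRF3 and IRF5 is on the protein, which transcript counts do not show.

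The members lie on 6 chromosomes of the mouse build GRCm38, on the plus strand for all but Irf7. Promoter windows from 250 bases before to 50 bases after an annotated start were searched on both strands for 4 motifs, using RefSeq promoter sequences of GRCm38 that matched 8 of 8 members. The motifs were the ISRE (GAAA, any 2 bases, GAAA), the STAT site GAS (TTCNNNGAA), the BMAL1-binding E-box (CACGTG) and the kB consensus, and they occurred in 3.44%, 8.3%, 7.15% and 8.46% of 32851 promoters. Irf1 held a GAS at positions -90 to -82 from its start and a kB match at -13 to -4. Irf2 held an ISRE at -241 to -232, a GAS at -224 to -216 and a kB match at -17 to -8, and Irf8 held a pair of GAS matches, the first at -171 to -163 and the second at -153 to -145. Positions are counted from the RefSeq start. Irf1 was called for LPS in both genotypes, and for CCM only in LPS-treated WT macrophages. Irf2 was called for LPS and Irf8 for neither. Stretches around these matches, except the kB match of Irf2, are shown, and capitals mark the matched letters.
Irf1 GAS, chr11:53769904-53769952, plus strand: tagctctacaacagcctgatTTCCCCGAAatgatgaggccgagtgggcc
Irf1 kB, chr11:53769981-53770013, plus strand: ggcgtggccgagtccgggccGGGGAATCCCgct
Irf2 ISRE and GAS, chr8:46739495-46739549, plus strand: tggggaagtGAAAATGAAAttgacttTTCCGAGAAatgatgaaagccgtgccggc
Irf8 GAS pair, chr8:120736167-120736233, plus strand: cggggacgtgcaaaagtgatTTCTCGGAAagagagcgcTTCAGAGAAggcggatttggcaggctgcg
None of the 4 motifs, as spelled, was in the windows of Irf3, Irf4, Irf5, Irf7 or Irf9, and no member held the E-box.

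Library totals ran from 13469300 to 28288900 read pairs assigned to genes. All 8 of 8 macrophage markers had counts in every library, with a summed level of 3630 to 8770 CPM (counts scaled to a common library size by library total and TMM factor). Fibroblast markers were also present, summing to 310 to 1710 CPM over the libraries and to 501 to 1410 CPM in the WT vehicle libraries. Arntl, the gene of Bmal1, had 7.52 to 12.9 CPM in WT and 2.02 to 10.8 CPM in KO libraries, so the ranges overlap. A count over the whole gene does not measure the deleted exon. KO replicate 6 stood apart in all 4 treatments, with a median correlation of 0.899 to 0.933 with its own group against 0.966 to 0.988 for KO replicates 1 to 5. Its neutrophil markers summed to 859 to 927 CPM, against 261 to 745 in the other KO libraries and 264 to 450 in WT libraries. Its B cell, T cell, erythroid and conventional dendritic sums reached 11.9, 8.99, 11.1 and 6.63 CPM, against at most 8.2, 4.43, 7.32 and 5.75 in the other KO libraries. Fibroblast and plasmacytoid dendritic sums did not exceed theirs. The lowest macrophage sum was 3630 CPM in replicate 6 and 4800 CPM in the others. KO results that replicate 6 moves are therefore also given without it. Fewer cells of a type and less RNA per cell cannot be told apart in bulk libraries.

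In resting WT macrophages Irf5 was the most abundant member. Levels were divided by the kilobases of annotated exon to set different genes side by side. That length depends on the annotated transcripts. For Irf7 (13 transcripts) its 3776 bases span the whole gene interval, so ranks and shares of the members hold only for this annotation. Irf5 stood at 93.6 ± 8.79 CPM per kb (SD, n = 3) and made up 60% of the summed level of the 8 members. Without the division Irf5 was also highest, at 272 CPM against 178 CPM for Irf8. Irf8 followed at 25.2 ± 1.76 and Irf3 at 12.1 ± 1.55 CPM per kb, each apart from its neighbours. Irf9, Irf1 and Irf2 stood at 6.76, 6.52 and 6.38 CPM per kb and their libraries overlapped, Irf7 was at 5 ± 0.525, and Irf4 was last at 0.472 ± 0.0953 CPM per kb.

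LPS changed this order. Irf7 became the most abundant member in WT macrophages at 348 ± 20.9 CPM per kb, 58% of the summed level, ahead of Irf5 (123 ± 2.14) and Irf1 (61.3 ± 4.55). Irf8 and Irf9 (22.2 and 21.9 CPM per kb) overlapped, and Irf3, Irf2 and Irf4 followed. The WT members summed to 156 ± 12.1 CPM per kb with vehicle and to 160 ± 5.97 with CCM. Under LPS the sum was 600 ± 17.7, and 465 ± 16.3 CPM per kb where CCM was added. In KO macrophages (n = 6) these sums were 147 ± 8.94, 154 ± 7.8, 620 ± 92.8 and 509 ± 71.5, and the member at the top was the same in each treatment.

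**Figure D1:**
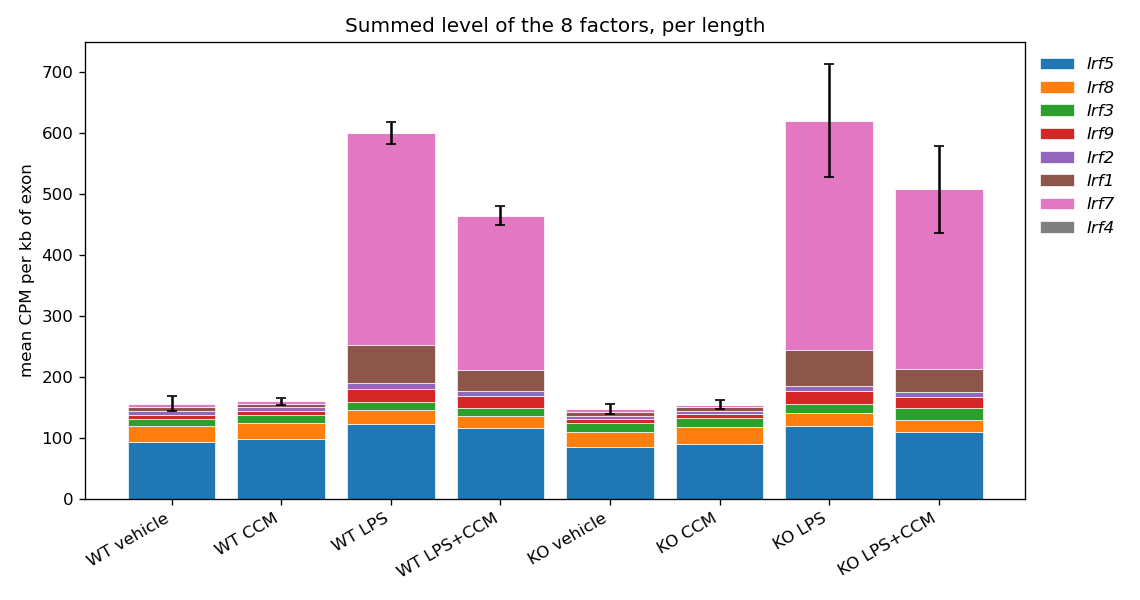
Summed level of the 8 factors in each group, as mean CPM per kb of annotated exon (bars stacked by gene) with the SD of the sum between libraries (error bars; WT n = 3, KO n = 6). Irf5 fills most of the resting bars and Irf7 most of the LPS bars, and the WT sum goes from 156 with vehicle to 600 with LPS and 465 with LPS and CCM.

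LPS raised 5 members and lowered 1 in WT macrophages. Differences were tested with edgeR's quasi-likelihood test on the libraries of the groups compared, and a gene is referred to as called where its p, adjusted by Benjamini-Hochberg over all genes tested, is 0.05 or less. In WT macrophages 6 of 8 members were called, beside 63% of all 14501 genes (30.6% higher, 32.4% lower). In KO macrophages 6 of 8 were called as well, 5 higher and 1 lower, beside 47.1% of 13648 genes (22.4% higher, 24.7% lower). The median log2 change of the members was 0.56 in WT and 0.57 in KO, against -0.05 for all genes in either genotype.

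Irf7, itself an ISGF3 target and the amplifier of the interferon response, rose most among the members. It stood at 17.8, 21.2 and 17.6 CPM in the WT vehicle libraries and at 1240, 1300 and 1400 CPM with LPS. The log2 fold change was 6.15 (SE 0.10, adjusted p = 3.32e-11), with 3 of 3 same-numbered libraries higher. In KO macrophages it went from 10.7 to 30.4 CPM (median 17.7) to 1250 to 1940 CPM (median 1300), a log2 fold change of 6.24 (SE 0.32, adjusted p = 3.34e-09), and 6.30 without replicate 6. The groups were far apart in either genotype.

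Irf1, a fast-induced factor downstream of NF-kB, was next. Its WT libraries held 26.1, 25 and 26.7 CPM with vehicle and 259, 249 and 224 CPM with LPS, a log2 fold change of 3.26 (SE 0.07, adjusted p = 1.72e-10). KO libraries held 21.4 to 27.8 CPM (median 24.8) with vehicle and 179 to 317 CPM (median 223) with LPS, a log2 fold change of 3.27 (SE 0.18, adjusted p = 6.61e-09), and 3.19 without replicate 6. Irf9, the DNA-binding part of ISGF3, rose from 36.8, 38.1 and 34.2 CPM to 123, 116 and 115 CPM in WT libraries, a log2 fold change of 1.73 (SE 0.07, adjusted p = 7.71e-09). In KO its log2 fold change was also 1.73 (SE 0.08, adjusted p = 1.83e-09), with or without replicate 6, and no LPS library of either genotype overlapped a vehicle library for these genes.

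Smaller changes were seen in the other members. Irf5 rose from 294, 277 and 244 CPM to 354, 364 and 352 CPM in WT (log2 fold change 0.42, SE 0.07, adjusted p = 0.000346) and by 0.49 in KO (SE 0.10, adjusted p = 0.00111; 0.47 without replicate 6). Irf2 rose from 48.7, 47.1 and 45.8 CPM to 71.2, 74.5 and 78.9 CPM in WT (log2 fold change 0.70, SE 0.06, adjusted p = 5.01e-06). In KO its log2 fold change was 0.65 (SE 0.24, adjusted p = 0.0406), and without replicate 6 it was 0.61 (adjusted p = 5.22e-07). Without any other KO replicate, 1 to 5, the call was lost (adjusted p = 0.0874 to 0.106).

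Irf4 was the member that fell, at very low levels. It had 47 to 82 read pairs in the WT vehicle libraries and 24 to 37 with LPS, or 1.78, 2.66 and 2.50 CPM against 1.42, 1.61 and 1.17 CPM. Its log2 fold change was -0.70 in WT (SE 0.26, adjusted p = 0.0399) and -0.84 in KO (SE 0.23, adjusted p = 0.00846; -0.74 without replicate 6). The WT call was lost with DESeq2 (adjusted p = 0.122) and in 5 of the 6 fits that left out 1 WT library, all but that without vehicle replicate 1, and the log2 fold change over the 6 fits was -0.85 to -0.57.

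Irf3 and Irf8 were not called in either genotype. Irf3, the factor that is present before stimulation and activated on the protein, stood at 47.2, 41.0 and 36.6 CPM with vehicle and 44.8, 45.6 and 48.4 CPM with LPS in WT (log2 fold change 0.19, adjusted p = 0.0863), and its groups overlapped. Irf8, a lineage factor of macrophages, stood at 192, 170 and 171 CPM with vehicle and 146, 156 and 168 CPM with LPS (log2 fold change -0.15, adjusted p = 0.0808), without overlap. Without KO replicate 6 both were called in KO, Irf3 at 0.19 (adjusted p = 0.00487) and Irf8 at -0.27 (adjusted p = 0.00111), which made 8 of 8 members beside 69.4% of all genes in that fit. In WT, Irf3 was called without vehicle replicate 1 (0.29, adjusted p = 0.0106) and Irf8 without LPS replicate 3 (-0.20, adjusted p = 0.0421). With the replicate number as a block, Irf8 in KO was at -0.22 (adjusted p = 0.00278) and 7 members were called, beside 71.6% of all genes. Scaled by total counts alone, the median over all genes was -0.47 in WT, Irf5 (0.01) was not called, and Irf3 (-0.22) and Irf8 (-0.56) were called lower. In KO the same scaling ended the calls of Irf5 (0.11, adjusted p = 0.322) and Irf2 (0.25, adjusted p = 0.487), and Irf8 was called lower (-0.61, adjusted p = 3.79e-05).

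**Figure D2:**
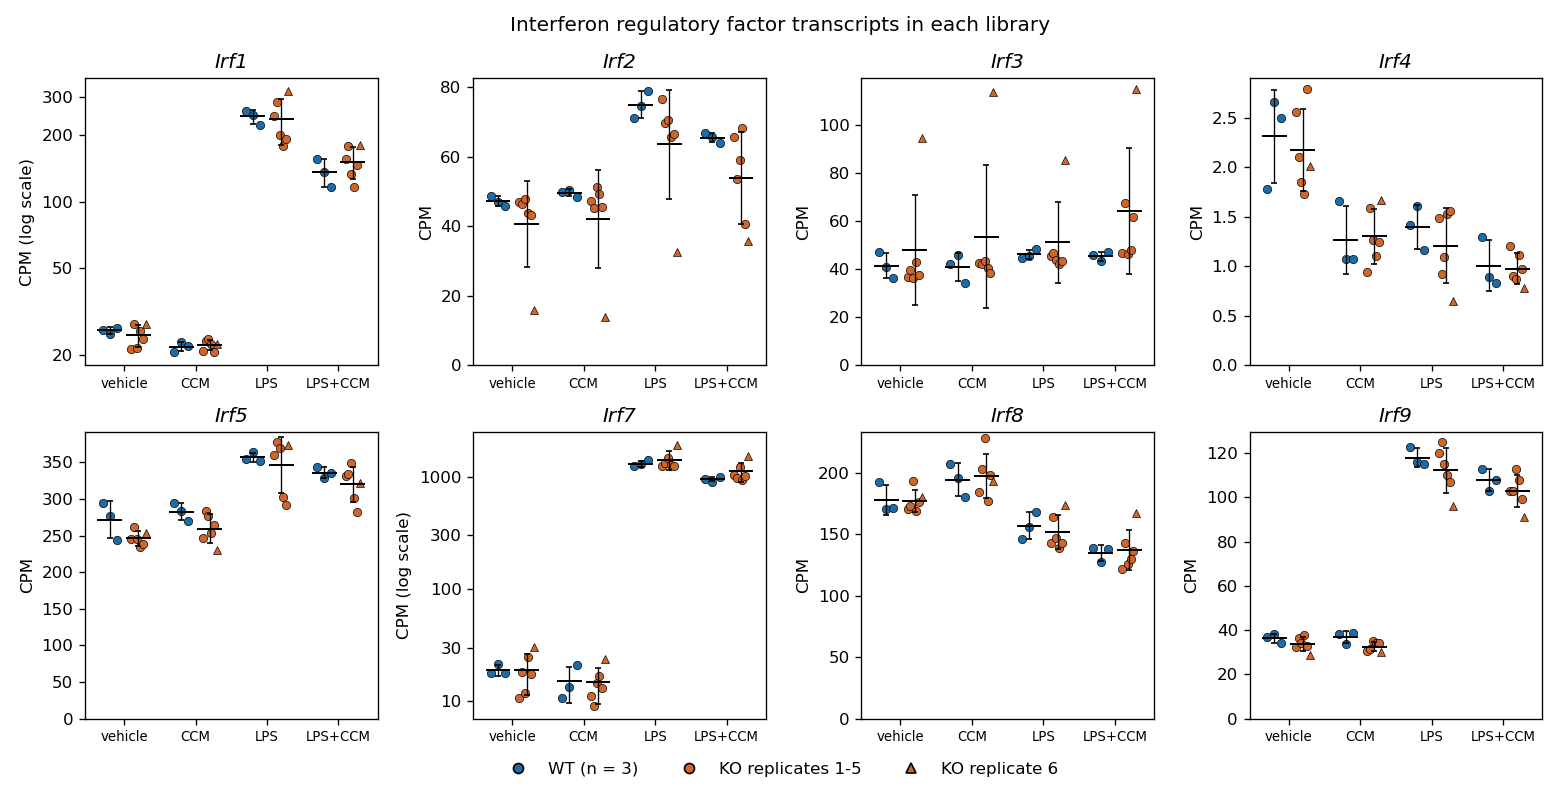
Level of each member in CPM in the 36 libraries, by treatment and genotype (WT n = 3; KO n = 6, replicate 6 as triangles), with the mean (horizontal line) and SD (error bar) of each group; the axes of Irf1 and Irf7 are logarithmic. Irf7 rises from at most 30.4 CPM with vehicle to at least 1240 CPM with LPS, and the triangles stand apart for Irf2 and Irf3.

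CCM lowered Irf1 and Irf7 in LPS-treated WT macrophages. Both were called, 2 of 8 members and each lower with CCM, beside 11.9% of the 13579 genes tested (7.78% lower). The log2 fold change lay below 0 for all 8 members, with a median of -0.20 against 0.01 for all genes. With the total counts as the scaling Irf3 was at 0.06 and Irf5 at 0, and the other members lay below 0. The same 3 LPS libraries enter this comparison and that of LPS with vehicle.

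Irf1 showed the largest change of the members. It stood at 259, 249 and 224 CPM with LPS and at 157, 136 and 117 CPM with LPS and CCM, so the groups did not overlap. The log2 fold change was -0.82 (SE 0.10, adjusted p = 0.000401, lower in 3 of 3 same-numbered libraries). Set against the vehicle level, 49% of the LPS rise was absent (43.5 to 54.1% when taken by replicate number). Irf7 stood at 1240, 1300 and 1400 CPM with LPS and at 965, 906 and 997 CPM with both, a log2 fold change of -0.45 (SE 0.05, adjusted p = 0.000495). For Irf7, 27.6% of the rise was absent (22.7 to 30.6%).

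Irf8, Irf2 and Irf9 sat closer to the threshold. Irf8 stood at 139, 127 and 138 CPM with LPS and CCM (log2 fold change -0.21, SE 0.06, adjusted p = 0.0506), Irf2 at 66.7, 65.7 and 64.0 CPM (-0.19, SE 0.06, adjusted p = 0.0551) and Irf9 at 113, 103 and 108 CPM (-0.12, SE 0.06, adjusted p = 0.209). None of these overlapped its LPS group, and neither did Irf5, which was further from the threshold. The share of all genes whose groups did not overlap was not determined for any comparison. Nor was the share that moved the same way in every same-numbered pair. With the replicate number as a block, 5 members were called, Irf8 (adjusted p = 0.00254), Irf2 (adjusted p = 0.00933) and Irf9 (adjusted p = 0.0425) in addition, beside 23.7% of all genes. Irf5 (-0.08, adjusted p = 0.263), Irf3 (-0.02, adjusted p = 0.907) and Irf4 (-0.47, adjusted p = 0.378) were not called.

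In LPS-treated KO macrophages no member was called by edgeR without a block, where 2 had an unadjusted p under 0.05 and DESeq2 called 1, Irf1. Over all genes edgeR called 0.112% of 13386 and DESeq2 1.3%. Irf1 held 179 to 317 CPM (median 223) with LPS and 117 to 181 CPM (median 151) with LPS and CCM. It was lower in 6 of 6 same-numbered libraries, but the groups overlapped, at a log2 fold change of -0.67 (SE 0.18, adjusted p = 0.19). Irf7 held 1250 to 1940 CPM (median 1300) and 935 to 1520 CPM (median 1020), also lower in 6 of 6 (log2 fold change -0.38, SE 0.17, adjusted p = 0.616). Same-numbered libraries did not all deviate together in this comparison (r = -0.1 to 0.81), so the 6 of 6 may not describe true pairs. Without replicate 6 the values were -0.60 (adjusted p = 0.0642) for Irf1 and -0.35 (adjusted p = 0.103) for Irf7. The difference between the genotypes in the CCM effect was 0.17 on the log2 scale for Irf1 (95% interval -0.395 to 0.742) and 0.09 for Irf7 (-0.444 to 0.623). Neither difference was called, and the interval of Irf7 includes both no difference and a full loss of its WT change. That of Irf1 includes no difference but not a full loss of its WT change in this fit, taken as -0.82 without its own error. Leaving out 1 WT library or KO replicate gave differences of 0.07 to 0.29 for Irf1 and 0.04 to 0.12 for Irf7. The intervals of those fits are not given here.

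**Figure D3:**
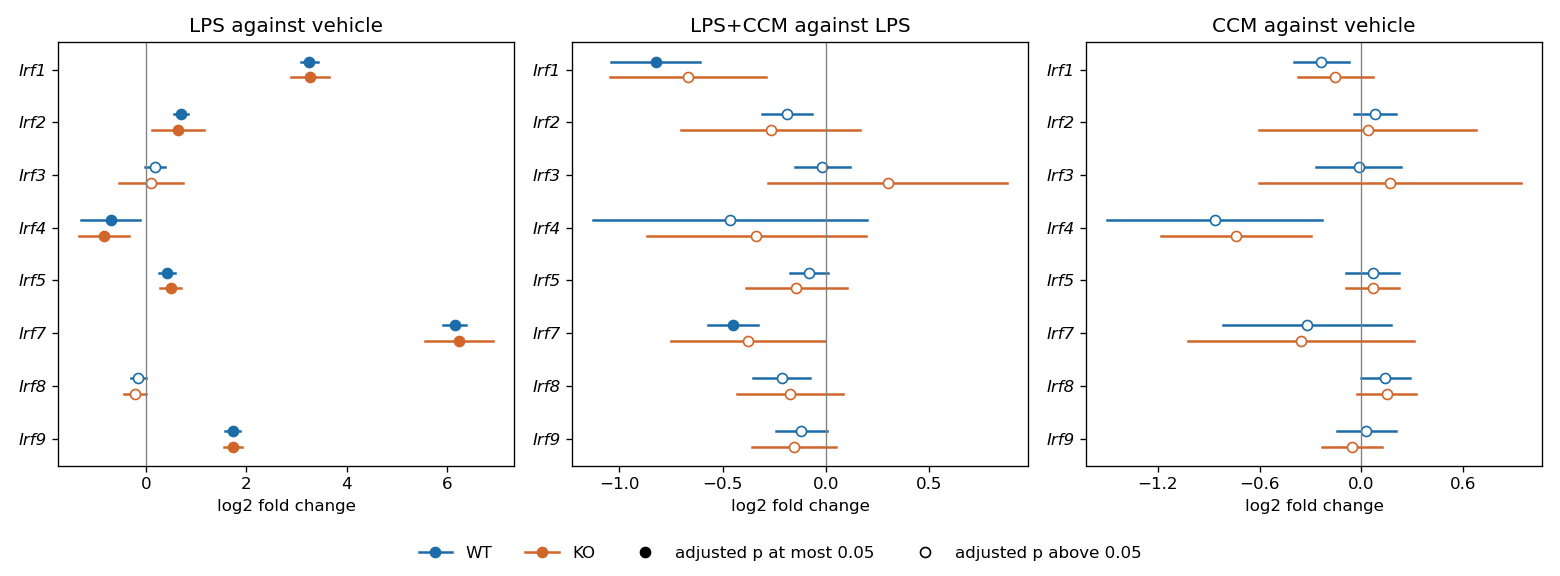
Log2 fold change of each member (points) with its 95% interval (lines) for LPS against vehicle, LPS with CCM against LPS, and CCM against vehicle, in WT (n = 3) and KO (n = 6) macrophages; filled points have an adjusted p of at most 0.05. With CCM under LPS the filled points are WT Irf1 (-0.82) and WT Irf7 (-0.45), and the KO points of these genes lie close to them with wider intervals.

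Whether CCM acted differently with and without LPS was tested as an interaction. In WT macrophages it was called for Irf1, 1 of 8 members beside 2.09% of 14747 genes, at -0.60 on the log2 scale (SE 0.13, adjusted p = 0.031). Irf2 (-0.29, adjusted p = 0.0691) and Irf8 (-0.37, adjusted p = 0.0714) came next, and Irf7 was at -0.15 (adjusted p = 0.84). The Irf1 call was lost when any 1 of 7 WT libraries was left out (vehicle replicates 1 and 2, CCM 2 and 3, LPS 1 and 2, LPS+CCM 2), at -0.61 to -0.57 (adjusted p = 0.0583 to 0.0806), and with total counts alone (-0.51, adjusted p = 0.0609). In KO macrophages 0 members were called by edgeR and 0 by DESeq2, 2 had an unadjusted p under 0.05, and 0.00685% of 14588 genes were called by edgeR and 0.082% by DESeq2. Irf1 was at -0.50 there (SE 0.21, adjusted p = 1), and at -0.47 without replicate 6 (adjusted p = 0.301).

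In resting macrophages CCM changed no member past the threshold. In WT 0 were called by edgeR and 0 by DESeq2, beside 0.057% of 14024 genes by edgeR and 2.41% by DESeq2, and Irf1 and Irf4 had an unadjusted p under 0.05. Irf1 stood at 20.8, 22.9 and 22.0 CPM with CCM, below each vehicle library (log2 fold change -0.23, SE 0.07, adjusted p = 0.319). In KO edgeR called 0 members and 0% of 13799 genes, where 333 genes, 1 of them a member, had an unadjusted p under 0.05. DESeq2 called 0.146% of genes and 0 members.

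Irf4 was the KO member with an unadjusted p under 0.05, and its levels with CCM lay below those with vehicle in both genotypes. It stood at 1.66, 1.07 and 1.07 CPM with CCM in WT (log2 fold change -0.87, SE 0.28, adjusted p = 0.348), from 23 to 36 read pairs a library. In KO it held 1.73 to 2.79 CPM (median 2.06) with vehicle and 0.944 to 1.67 CPM (median 1.26) with CCM, without overlap and lower in 6 of 6 same-numbered libraries. The KO log2 fold change was -0.74 (SE 0.20, unadjusted p = 0.00319, adjusted p = 1), and -0.85 without replicate 6 (adjusted p = 0.0716). Irf8 was higher with CCM in 3 of 3 WT and 6 of 6 KO same-numbered libraries (0.14 and 0.15 on the log2 scale), with overlapping groups and no call. Irf7 stood at 10.6, 13.3 and 20.9 CPM with CCM in WT, and its groups overlapped.

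Loss of Bmal1 changed no member detectably at this spread. With vehicle the KO-against-WT log2 fold changes were -0.18 to 0.27, and with LPS -0.22 to 0.18. In both treatments edgeR called 0 members and DESeq2 called 0, and 0 members had an unadjusted p under 0.05. Over all genes edgeR called 0% of 14385 with vehicle and 0% of 13794 with LPS, where 118 and 105 genes had an unadjusted p under 0.05, and DESeq2 called 0.0037 and 0.0038%. For Irf7 with LPS the difference was 0.14 (95% interval -0.229 to 0.509) and for Irf1 -0.02 (-0.447 to 0.411). The genotype by LPS interaction was 0.12 for Irf7 (-0.676 to 0.909) and 0.03 for Irf1 (-0.478 to 0.539). It was called for 0% of 15093 genes, and the genotype by CCM interaction under LPS for 0% of 14546, in each case with 0 members at an unadjusted p under 0.05 and 0% of genes called by DESeq2. Of all genes, 112 and 72 had an unadjusted p under 0.05. Irf3, at 0.27 with vehicle and 0.18 with LPS, was at -0.08 and -0.05 without KO replicate 6.

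KO replicate 6 departed from its group in Irf2 and Irf3 more than in other members. Its Irf2 held 16.0, 13.9, 32.7 and 35.9 CPM with vehicle, CCM, LPS and LPS with CCM, where the other KO libraries held 43.1 to 47.8, 45.3 to 51.2, 65.7 to 76.6 and 40.7 to 68.1 CPM. Its Irf3 held 94.6, 114, 85.5 and 115 CPM, where the others held 36.4 to 43.3, 38.6 to 43.7, 42.1 to 46.7 and 46.6 to 67.6 CPM. Irf5 in this replicate differed from the others by -0.204 to 0.142 log2 units, and the rise of Irf7 with LPS was present in it. Genes in the quartile of lowest GC content were lower in replicate 6 by a median of -0.901 to -0.557 log2 units, and those in the highest quartile higher by 0.324 to 0.412. Irf3 (56.7% GC) lies in the highest quartile and Irf2 (46.4%) in the second lowest. Irf5 (55.7%) and Irf7 (55.4%) also lie in the highest, and Irf7 was higher in replicate 6 by 0.562 to 0.939 log2 units. Between 25.4 and 38.5% of all genes departed further than Irf3 did in these libraries, and 18 to 50.9% further than Irf2. The part of GC content and of the cell type markers in these values was not tested.

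In KO macrophages with LPS and CCM, replicates 2 and 5 lay in the same direction, with Irf3 at 67.6 and 62.0 CPM and Irf2 at 53.7 and 40.7 CPM. The KO log2 fold change of Irf3 with CCM under LPS was 0.30 (SE 0.27, adjusted p = 0.852), higher in 6 of 6 same-numbered libraries, and that of Irf2 was -0.27 (SE 0.20, adjusted p = 0.827). In WT macrophages Irf3 stood at 46.1, 43.5 and 47.1 CPM with both, and its mean was 1.53% below that with LPS.

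**Figure D4:**
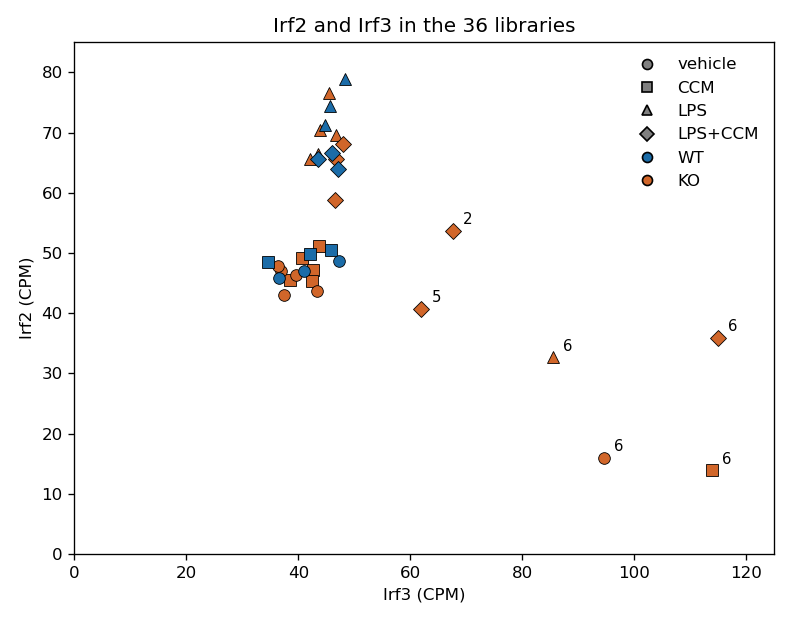
Irf2 against Irf3, both in CPM, in the 36 libraries (symbols by treatment, colours by genotype; numbers mark KO replicates). KO replicate 6 lies at the right with 85.5 to 115 CPM of Irf3, KO replicates 2 and 5 with LPS and CCM lie between, and the other libraries keep to Irf3 levels of 34.5 to 48.4 CPM.

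The genes around the family moved as follows, in lists chosen with earlier results of these data known. Over all genes in WT, 30.6% were called higher and 32.4% lower with LPS, and 11.9% with CCM under LPS (7.78% lower). In KO, 0.112% of all genes were called for CCM under LPS, and 1.27% without replicate 6. Of 14 genes that signal to IRF3, IRF5 and IRF7, LPS raised 9 and lowered 4 in WT macrophages (median log2 change 0.60, all genes -0.05). Tlr4, the LPS receptor, was at -0.22 (adjusted p = 0.0595), its co-receptor Cd14 at 2.86 (adjusted p = 2.2e-09), and the adaptors Ticam1 and Ticam2 at 0.47 (adjusted p = 0.000521) and 1.14 (adjusted p = 6.82e-06). With CCM under LPS, 1 rose and 2 fell (median 0.01, all genes 0.01), and these 4 were not called (adjusted p = 0.451 to 0.994). In KO 0 of 14 were called for CCM under LPS.

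Of 5 type I interferon genes, only Ifnb1 had enough counts to be tested. It was at 0 in all 3 WT vehicle libraries, at 1.65 ± 0.325 CPM with LPS and at 0.367 ± 0.107 CPM with LPS and CCM (log2 fold change with CCM -2.14, SE 0.35, adjusted p = 0.00322). In KO macrophages it was at 1.79 ± 0.909 and 0.757 ± 0.285 CPM (-1.26, SE 0.37, adjusted p = 0.271), and its log2 fold change was -0.84 without replicate 6 (adjusted p = 0.202).

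Of 9 interferon receptor, Janus kinase and ISGF3 genes, LPS raised 8 and lowered 1 in WT (median 1.12), and CCM under LPS lowered 4 and raised 1 (median -0.09). Stat2, a partner of IRF9, was at 3.31 with LPS and at -0.32 (adjusted p = 0.00488) with CCM under LPS. The receptor subunits Ifnar1 and Ifnar2 were at 0.06 and 0.03 with CCM (adjusted p = 0.428 and 0.755). In KO 0 of 9 were called for CCM under LPS. Of 12 partners and inhibitors of the family, LPS raised 8 and lowered 3 in WT (median 2.12), and CCM under LPS lowered 4 and raised 1 (median -0.12). Spi1, which encodes PU.1, was at -0.05 (adjusted p = 0.592), Batf at -0.19 (adjusted p = 0.0616), Batf2, a partner of IRF1, at -0.79 (adjusted p = 5.04e-05) and Batf3 at 0.27 (adjusted p = 0.721). In KO 0 of 12 were called for CCM under LPS, and 3, each lower, without replicate 6.

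Of 18 target genes, LPS raised 18 and CCM under LPS lowered 18 in WT macrophages (median log2 change with CCM -0.71, all genes 0.01). Over all genes, 30.6% were called higher with LPS and 7.78% lower with CCM under LPS. Ifit1, Ifit2 and Ifit3, antiviral genes bound by ISGF3, were at -0.53, -0.76 and -0.67, and Isg15, a ubiquitin-like modifier, at -0.43 (adjusted p = 1.73e-05 to 0.000714). In KO 2 of 18 were called lower (6 of 18 without replicate 6, where 1.27% of all genes were called), with a median of -0.64, and these 4 genes were at -0.44, -0.79, -0.49 and -0.09 (adjusted p = 0.325 to 0.939). In resting macrophages 0 genes of the 5 lists were called for CCM in either genotype, where 0.057% of all genes were called in WT and 0% in KO. The 14 target genes tested there had a median log2 change of -0.30 in WT (all genes -0.01) and -0.76 in KO (all genes 0.01). Levels there are low and spread widely between KO libraries. Ifit1, Ifit2, Ifit3 and Isg15 stood at 7.89 ± 4.23, 13.1 ± 8.42, 8.6 ± 3.83 and 8.86 ± 4.16 CPM in KO vehicle libraries (SD). The difference between these medians was not tested.

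Genes whose log2 CPM followed each member most closely over the 36 libraries are given as a description, since the libraries share treatments. For Irf7 these were Isg15, Ehd1 and Dhx58 (Pearson r = 0.997 each), for Irf9 Ifi209, Parp12 and Ifi203 (0.996), and for Irf1 Cdkn1a, Daxx and Batf2 (0.994 to 0.996). For Irf2 they were Cpne3, Pkn2 and Rfx5 (0.977 to 0.978) and for Irf3 Bad, Mcrip1 and Lypla2 (0.974 to 0.979), where KO replicate 6 adds to the spread of both. The closest genes were Fam219a for Irf5 (0.934), Scarb2 for Irf8 (0.895) and Smc1a for Irf4 (0.696).

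Annotated gene intervals overlap those of 7 members. Irf9 shares its interval with Rnf31 on the same strand, which went from 31.5 ± 2.03 to 154 ± 7.67 CPM with LPS in WT, and Irf5 with Tnpo3 on the other strand (56 ± 2.44 to 77.5 ± 3.04 CPM). Bcl2l12 overlaps Irf3 on the other strand at 5.51 ± 0.875 CPM with vehicle and 3.73 ± 1 CPM with LPS in WT, and Phrf1 overlaps Irf7 on the other strand at 54.3 ± 2 and 69.2 ± 3.12 CPM. Whether the counting used strand is not given in the sources used here, so how reads were shared within such pairs is uncertain. Only Irf4 overlaps no other annotated gene.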

How the data were processed

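BMDM RNA was poly(A)-selected, sequenced and processed by the authors, whose processing notes name fastp, HISAT2 2.0.5 and featureCounts 1.5.0-p3 with mm10 (GRCm38). The deposited values are raw counts of read pairs per gene, and all 36 columns were used. Columns of gene length served for CPM per kb. Of 54532 genes, 54495 were matched to GENCODE vM21. Totals were 13469300 to 28288900 per library. Counting error is largest for Irf4.

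The libraries of the groups compared entered each fit, made with edgeR 4.0.16 in R 4.3.3 (filterByExpr, TMM, quasi-likelihood test, no block, two-sided) and adjusted over all genes at 0.05. The tests were also run on simulated counts. Those counts were drawn independently for each library, so they do not hold the departure of KO replicate 6 or any pairing. CPM use TMM factors, and log2 CPM a prior count of 2. Alternatives were DESeq2 1.42.0, RLE size factors, total counts alone, a filter of only 1 count, a block for the replicate number, and leaving out each WT library or KO replicate. Every member is named, together with the first 4 tested genes of each pathway list and the 3 genes most correlated with a member among 11179 with an average log2 CPM of at least 1, except that 1 listed gene is not reported here. Members and lists were chosen with earlier results of these data known. No source says that a replicate number marks a mouse. Same-numbered libraries deviated together (r above 0.1 in every pair) for LPS in KO (0.298 to 0.83), CCM in resting KO (0.337 to 0.844) and CCM under LPS in WT (0.151 to 0.36). Cell type lists held 8 macrophage and 6 neutrophil markers, with B cell (2.11 to 11.9 CPM summed), T cell (0.671 to 8.99), erythroid (1.2 to 11.1), fibroblast (310 to 1710), conventional dendritic (1.95 to 6.63) and plasmacytoid dendritic cell markers (0.533 to 6.32).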

Additional observations from a re-analysis of the deposited data

Results flagged for a closer look

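Of 32 member-by-group sets of 6 KO libraries, 8 had a sample far from the other libraries of its group by Dixon's test. Chance gives about 1 in 20 for a single set. All 8 were KO replicate 6, so the sets are not independent and their count cannot be set against that rate. The share of such sets over all genes is not given here. In that replicate 18 to 50.9% of all genes departed further than Irf2, and 25.4 to 38.5% further than Irf3. Irf2 was far below the other KO libraries with vehicle (16 CPM), CCM (13.9 CPM) and LPS (32.7 CPM). Irf3 was far above them with vehicle (94.6 CPM), CCM (114 CPM), LPS (85.5 CPM) and LPS with CCM (115 CPM), and Irf7 with LPS (1940 CPM against 1250 to 1460). WT groups of 3 were not tested in this way. The effect of CCM on Irf1 in WT macrophages differed between LPS and vehicle by -0.6041 on the log2 scale in the interaction test.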

How the results depend on the processing

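Over 55 member results and 667 alternative values, 610 kept direction and side of the threshold, 23 lost the threshold, 25 gained it and 9 reversed, and 34 results held throughout. The LPS calls of Irf1, Irf7 and Irf9 and the WT calls of Irf1 and Irf7 for CCM under LPS held under every alternative. The cause was not tested where values moved, and Irf4 has 8 to 82 read pairs a library, so its changes are the least precise.

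With DESeq2, 1 member was called for CCM under LPS in KO (0 by edgeR) and 3 for the WT interaction (1), and with RLE size factors 4 in WT for CCM under LPS (2) and 2 for the interaction. Over all genes DESeq2 called 180 (edgeR 15) and 696 (edgeR 308) there, and RLE size factors 1656 (TMM 1621) and 361 (TMM 308). With a filter of 1 count the interaction had 2 members, beside 721 genes in all. With total counts alone it had 0, and Irf3 turned to -0.22 and -0.26 for LPS in WT and KO and to 0.064 in WT when CCM was added to LPS. That scaling moved the median gene under LPS from -0.0534 to -0.4653 in WT and from -0.0541 to -0.4377 in KO. It moved the share of calls that were higher from 48.6 to 24% and from 47.6 to 24.2%, from 34.8 to 67.7% in WT for CCM under LPS, and from 22.4 to 66.3% for the WT interaction.

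With the replicate block 5 WT members were called for CCM under LPS, 2 in KO (Irf1, adjusted p = 0.00162, and Irf7, adjusted p = 0.01) and 2 for the WT interaction, Irf8 in addition (adjusted p = 0.0419). Over all genes these fits called 3220, 777 and 548. In KO under LPS with CCM same-numbered correlations were -0.1 to 0.81, for LPS in WT 0.047 to 0.173 and for CCM in resting WT 0.051 to 0.466. The block changed no other call of a member beside those given in the report. No paired analysis was possible for KO against WT because no source ties a WT number to a KO number.

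Leaving out 1 WT library or KO replicate gave 2 to 4 members in WT for CCM under LPS (4 without LPS replicate 1, Irf2 and Irf8 in addition) and 0 to 1 for the WT interaction. Over all genes these fits called 893 to 1352 and 149 to 295. Irf3 ran from -0.0409 to 0.0177 in WT for CCM under LPS, from -0.0757 to 0.37 for KO against WT with vehicle and from -0.0513 to 0.23 with LPS. Irf4 ran from -0.26 to 0.0453 for genotype by LPS and Irf2 from -0.13 to 0.015 for genotype by CCM.

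Over all genes, calls for LPS in KO went from 6433 to 9774 with the block and 9612 without replicate 6. For CCM in resting WT they went from 8 to 247 (DESeq2), 377 (filter of 1 count) and 255 (block), and to 0 without any 1 CCM library and 1 to 16 without a vehicle library, and in resting KO from 0 to 24 (DESeq2), 429 (block) and 141 (without replicate 6). For CCM under LPS they went from 1621 to 3220 (block) in WT, 893 to 958 without WT LPS+CCM replicate 2 or WT LPS replicate 2, and in KO from 15 to 180, 777 and 170 with DESeq2, the block and without replicate 6, and to 0 to 7 without 1 of KO replicates 1 to 5. The WT interaction went from 308 to 696 (DESeq2), 721 (filter of 1 count) and 548 (block), and to 149 to 204 without single WT libraries, and the KO interaction from 1 to 12 (DESeq2), 81 (block) and 10 (without replicate 6), and to 0 without any 1 of the others.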
